A study of Homo sapiens with 12 samples.

Results

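A set of 10 genes of lipid droplet storage and breakdown were followed in RCC4, a cell line of clear cell renal carcinoma, a tumour named for cells filled with lipid and glycogen. The genes were taken as a list of symbols matched to the deposited gene IDs: HILPDA, PLIN2, PLIN3, PLIN4, FITM2, PNPLA2, ABHD5, LIPE, MGLL and LIPA. These are 10 of the 60663 genes in the table of counts. Each symbol matched 1 ID, and all 10 were among the 20714 genes with enough counts to test. VHL is a ubiquitin ligase subunit that marks hypoxia-inducible factors (HIF) for breakdown. The cells were either labelled VHL-negative or were the same line with VHL put back. They received 5 µM JQ1, which blocks BET bromodomains and is named a MYC inhibitor in the labels, or the solvent DMSO. The groups were VHL-negative cells with JQ1, VHL-negative cells with DMSO, VHL-positive cells with JQ1 and VHL-positive cells with DMSO, with 3 libraries each. All cells were grown with geneticin, a selection drug. The VHL construct, the number of clones in a line and the time of treatment are not described. Nor do the labels tell if replicates came from separate cultures, and p-values may therefore reflect only the technical spread.

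A lipid droplet is a core of triglyceride and cholesterol ester under a single layer of phospholipid. Coat proteins of the perilipin family sit on that layer, and the droplet is emptied stepwise by lipases. Adipose triglyceride lipase (ATGL, gene PNPLA2) removes the first fatty acid from triglyceride, hormone-sensitive lipase (LIPE) cuts diglyceride, and monoglyceride lipase (MGLL) cuts monoglyceride. ABHD5 (CGI-58) activates ATGL, while HILPDA, a small protein induced by hypoxia, inhibits it. A second route runs through the lysosome, where the acid lipase LIPA works. HILPDA and PLIN2 are known HIF-responsive genes, and PLIN2 is a marker of clear cell renal carcinoma.

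HILPDA lies on chromosome 7 at 128455849 to 128458418 (GRCh38, plus strand). Its coding sequence is shown because HILPDA had the largest fold change of the 10 genes in both comparisons of VHL-negative cells with JQ1, and because the protein is very short. It spans 192 bases, or 63 codons before the stop, in a single stretch at chr7:128457269-128457460 (plus strand, GENCODE 29), with the start and stop codons in capitals.
HILPDA coding sequence: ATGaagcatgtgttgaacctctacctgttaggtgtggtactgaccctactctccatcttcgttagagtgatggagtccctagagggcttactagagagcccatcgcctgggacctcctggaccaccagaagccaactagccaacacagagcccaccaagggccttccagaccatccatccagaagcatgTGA

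Promoter windows from RefSeq (GRCh38.p14, 250 bases before to 50 bases after a gene's start) were found for 8 of the 10 genes, in 13 windows, with none for HILPDA or MGLL. The windows of PLIN2 and PNPLA2 are shown because these genes took different courses with JQ1 and with VHL, as described below. Capitals mark the HIF core motif, ACGTG or GCGTG on either strand (CACGT or CACGC when read on the other), and the E-box CACGTG, the site type bound by MYC with MAX. The E-box contains ACGTG, so it also counts as HIF cores.
PLIN2, chr9:19127443-19127742, minus strand: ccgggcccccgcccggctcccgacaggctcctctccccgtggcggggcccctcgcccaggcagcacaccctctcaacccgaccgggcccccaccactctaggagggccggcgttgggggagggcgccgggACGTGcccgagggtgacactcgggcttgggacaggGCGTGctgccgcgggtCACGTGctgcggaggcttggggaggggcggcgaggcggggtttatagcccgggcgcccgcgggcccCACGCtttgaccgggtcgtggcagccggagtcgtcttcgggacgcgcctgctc
PNPLA2, chr11:818664-818963, plus strand: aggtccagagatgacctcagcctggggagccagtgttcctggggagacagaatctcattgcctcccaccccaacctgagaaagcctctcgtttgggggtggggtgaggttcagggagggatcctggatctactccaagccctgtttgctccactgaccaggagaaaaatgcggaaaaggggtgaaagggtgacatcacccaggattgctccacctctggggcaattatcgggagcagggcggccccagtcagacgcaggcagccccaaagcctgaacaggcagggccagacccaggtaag
The PLIN2 window held 5 HIF core matches, of which 3 lay outside the E-box, and 1 E-box starting 69 bases before the gene's start. The PNPLA2 window held neither motif. Of the other genes, PLIN3 had 3 HIF core matches, FITM2 2, LIPA 4 in 1 of its 3 windows and ABHD5 1 in 2 of its 3 windows, which overlap each other. PLIN4 and LIPE had none, and only the PLIN2 window among the 13 held an E-box. Over all 34943 RefSeq windows of this length, 48.4% held a HIF core and 7.23% an E-box, so a HIF core match is common. A match describes the letters in the window and no more.

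Total counts per library ran from 15452949 to 32502310, and mitochondrial genes took 9.90 to 25.3% of counts. No pair of replicate libraries agreed within sampling noise. The root mean square deviation of log2 CPM from the group mean was highest in the first JQ1 library of VHL-negative cells (0.392, against 0.227 to 0.372 in the other 11). Calls on the 10 genes that changed without that library are given below. VHL averaged 32.7 ± 2.39 and 26.4 ± 1.64 CPM in VHL-negative cells with JQ1 and DMSO, against 212 ± 14.0 and 70.3 ± 7.62 CPM in VHL-positive cells with JQ1 and DMSO (CPM, counts on TMM-scaled library sizes, SD, n = 3). VHL RNA was thus present in VHL-negative cells too, and the counts do not show if it encodes working protein. With JQ1, VHL RNA rose in VHL-positive cells (log2 1.59, adjusted p = 3.47e-07 in the edgeR test described below). In VHL-negative cells its change did not pass (log2 0.31, adjusted p = 0.0674). Whether this rise bears on the differences between the lines was not tested. MYC, the factor that the labels name as the drug's target, averaged 160 ± 28.9 and 342 ± 84.4 CPM in VHL-negative cells with JQ1 and DMSO, and 161 ± 18.8 and 171 ± 48.0 CPM in VHL-positive cells. All 10 markers of renal carcinoma epithelium reached 1 CPM in the VHL-negative libraries, and 9 of 10 did in the VHL-positive ones, where CA9, a HIF target, stayed below 1 CPM. The 7 adipocyte markers summed to between 0.326 and 2.01 CPM per library, and the 7 macrophage markers to between 1.21 and 4.63 CPM, with CSF1R the highest on average in each group and ITGAM next to it in VHL-positive cells with DMSO (1.38 and 1.20 CPM). In such bulk libraries, fewer cells expressing a gene and less RNA of it per cell cannot be told apart.

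**Figure D1:**
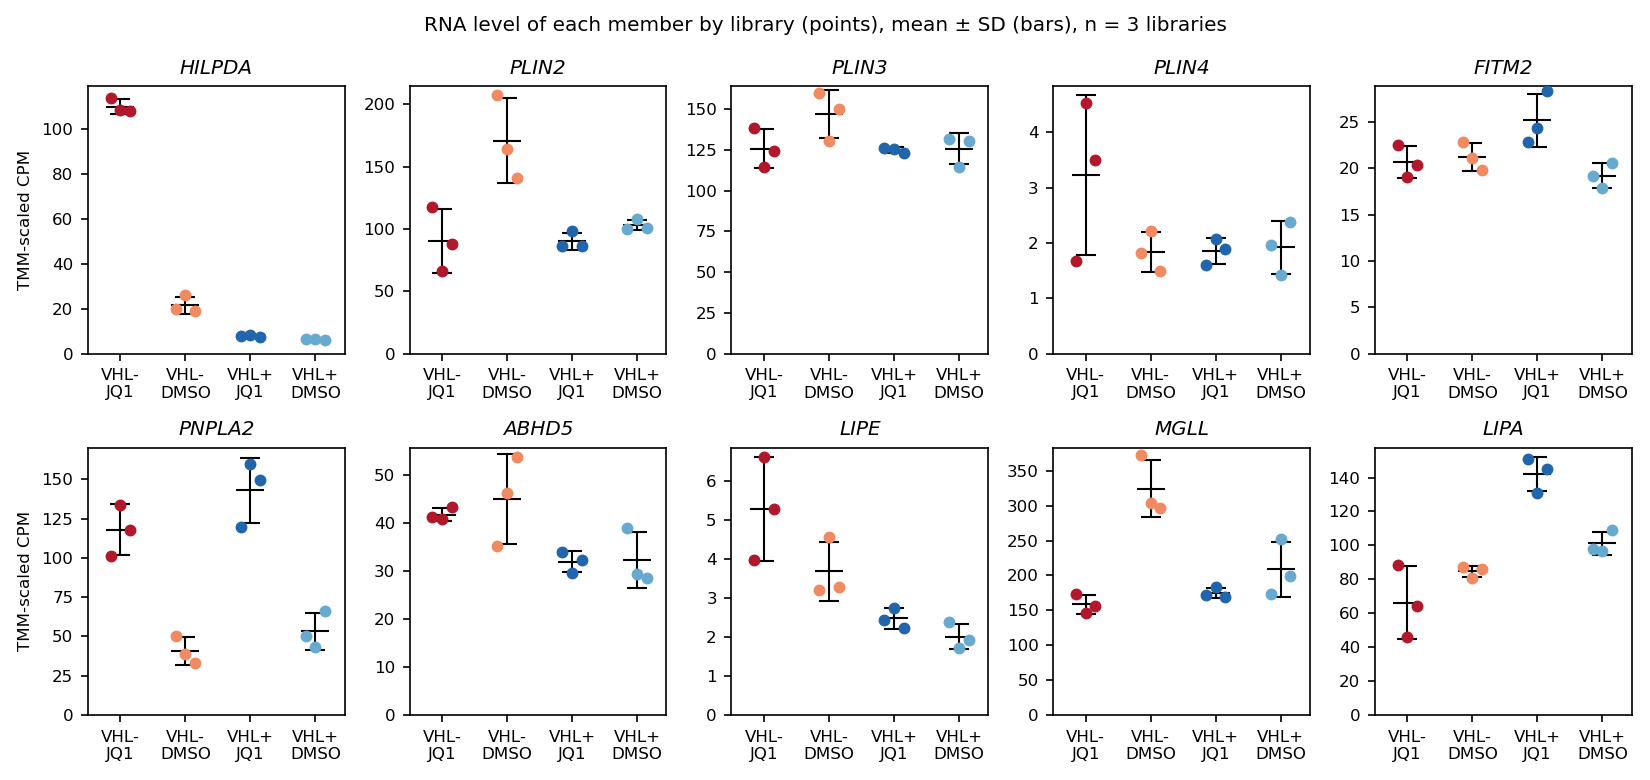
RNA level of the 10 genes in each library (points, TMM-scaled CPM, linear axes from 0), with the mean and SD of 3 libraries per group (bars); VHL- and VHL+ are VHL-negative and VHL-positive cells. HILPDA stood at 108 to 114 CPM in VHL-negative cells with JQ1 and at most 25.9 CPM in every other library, while PNPLA2 was above 100 CPM in all 6 JQ1 libraries and at most 66.2 CPM in all 6 DMSO libraries.

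On a scale of CPM per kb of exon, the order of levels depended on the group. The length used was that of all annotated exons of a gene merged, such as 2813 bases for PLIN3, 5086 for PLIN2 and 11849 for MGLL. Which transcripts the cells make was not tested, so the order between genes is approximate. Without division by length, MGLL led in VHL-negative cells with DMSO (324 CPM), ahead of PLIN2 (171 CPM) and PLIN3 (147 CPM). In VHL-negative cells with JQ1, HILPDA stood highest at 53.1 ± 1.59 CPM per kb. PLIN3 followed at 44.7 ± 4.28, PNPLA2 at 30.7 ± 4.22 and PLIN2 at 17.8 ± 5.07 CPM per kb. LIPA (13.5 ± 4.36) and MGLL (13.4 ± 1.16) overlapped with PLIN2 in their spread. In VHL-negative cells with DMSO, PLIN3 led at 52.3 ± 5.29, ahead of PLIN2 at 33.6 ± 6.67 and MGLL at 27.4 ± 3.49 CPM per kb. HILPDA (10.4 ± 1.83) and PNPLA2 (10.6 ± 2.28) were level with each other there. In VHL-positive cells PLIN3 led under both treatments, at 44.4 ± 0.547 CPM per kb with JQ1 and 44.8 ± 3.43 with DMSO. With JQ1, PNPLA2 came second there at 37.2 ± 5.37 CPM per kb, whereas with DMSO LIPA (20.6 ± 1.35) and PLIN2 (20.3 ± 0.834) came next and did not differ beyond their spread. HILPDA stood at 3.83 ± 0.150 and 3.03 ± 0.134 CPM per kb in VHL-positive cells with JQ1 and DMSO, below every other gene of the list except LIPE and PLIN4. LIPE and PLIN4 were the lowest in all 4 groups, with group means from 0.283 (PLIN4) to 1.02 (LIPE) CPM per kb and between 33 and 154 counts per library.

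With JQ1 in VHL-negative cells, HILPDA and PNPLA2 rose, PLIN2 and MGLL fell, and 6 genes did not pass the test. The threshold was an adjusted p (Benjamini-Hochberg, over all 20714 genes) under 0.05 in edgeR's quasi-likelihood test. The 4 of 10 that passed are read against 32.1% of all genes that passed in this comparison, 14.6% higher and 17.5% lower. With JQ1 in VHL-positive cells, PNPLA2, LIPA and FITM2 rose and none fell, 3 of 10 against 31.8% of all genes (15.3% higher, 16.5% lower). The median log2 change of the 10 genes was -0.07 in VHL-negative cells and 0.15 in VHL-positive cells, beside 0.03 and -0.03 over all genes tested. Protein-coding genes fitted alone passed more often than all genes, 5640 of 13582 in VHL-negative and 5771 in VHL-positive cells. The list as a whole thus moved about as often as other genes did, and its members moved in different directions.

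**Figure D2:**
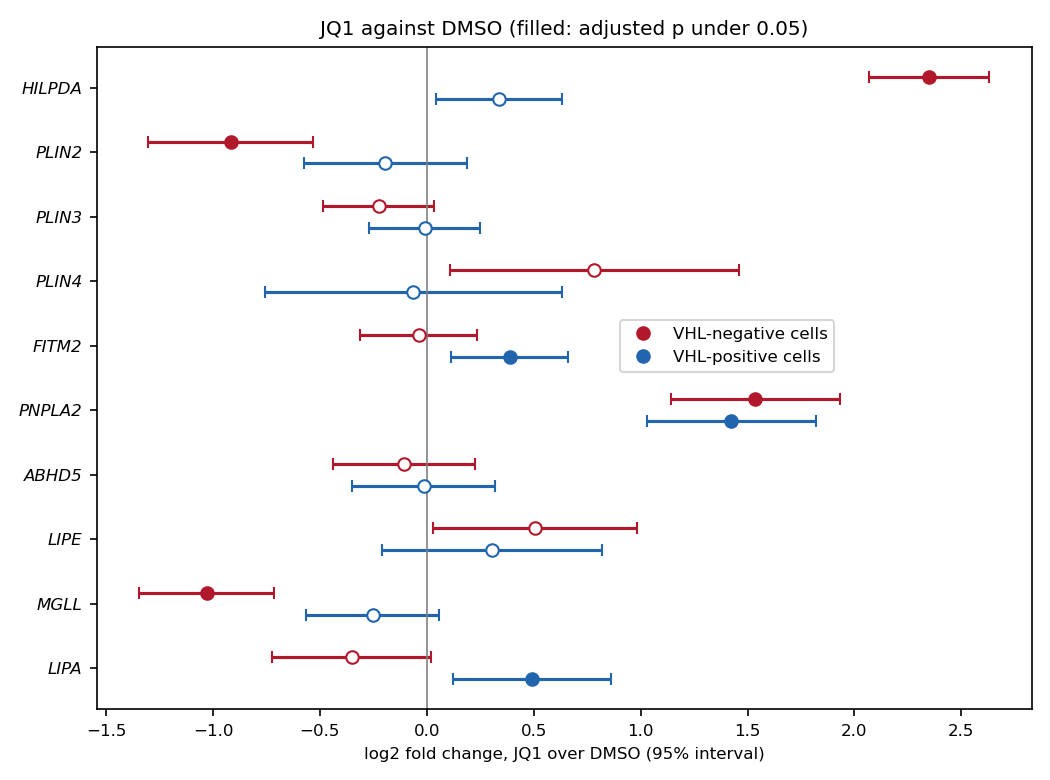
Log2 fold change of JQ1 over DMSO for the 10 genes in VHL-negative (red) and VHL-positive cells (blue), with 95% intervals from edgeR; filled points passed at an adjusted p under 0.05. PNPLA2 rose by a like amount in both lines (log2 1.54 and 1.42), while HILPDA rose by log2 2.35 in VHL-negative cells against 0.34, which did not pass, in VHL-positive cells.

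Among the coat proteins, PLIN2, which coats droplets in most cell types, had 117, 65.9 and 88.0 CPM in VHL-negative cells with JQ1, against 208, 164 and 141 CPM with DMSO. All 3 JQ1 libraries lay below all 3 DMSO libraries, and PLIN2 fell by 0.92 on the log2 scale (SE 0.182, adjusted p = 0.00118). In VHL-positive cells PLIN2 had 86.2, 98.0 and 86.1 CPM with JQ1, against 100, 108 and 101 CPM with DMSO. These libraries did not overlap either, but the change of log2 -0.19 did not pass (SE 0.181, 95% interval -0.58 to 0.19, adjusted p = 0.451). The share of all genes without overlap was not counted, so non-overlap is given here and below only as a description. The difference between both JQ1 effects on PLIN2 was log2 -0.72 (SE 0.256, adjusted p = 0.128) and did not pass.

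PLIN3 (TIP47), a perilipin that moves between cytosol and nascent droplets, was the most even of the 10 genes. Its libraries ran from 115 to 139 CPM with JQ1, against 131 to 160 CPM with DMSO, in VHL-negative cells, and from 123 to 126 CPM with JQ1, against 115 to 132 CPM with DMSO, in VHL-positive cells. The groups overlapped in both lines, with log2 changes of -0.22 (95% interval -0.48 to 0.03, adjusted p = 0.174) and -0.010 (-0.27 to 0.25, adjusted p = 0.961). An opposite-strand gene, AC027319.1, overlaps 17.8% of the exon length of PLIN3, and the strand setting of the counting is not given. PLIN4, a perilipin best known in adipose tissue and muscle, had 1.67, 4.53 and 3.50 CPM in VHL-negative cells with JQ1, against 1.81, 2.22 and 1.48 CPM with DMSO. The first JQ1 library lay among the DMSO libraries, and the change of log2 0.78 did not pass (adjusted p = 0.0715), though it did when that library was left out (log2 1.10, adjusted p = 0.00444). In VHL-positive cells PLIN4 ran from 1.60 to 2.07 CPM with JQ1 and from 1.42 to 2.38 CPM with DMSO.

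As a share of summed perilipin RNA per kb (PLIN1 to PLIN5), a measure added after the data were seen, PLIN2 made up 27.8 ± 3.99% in VHL-negative cells with JQ1 and 38.8 ± 4.19% with DMSO. In VHL-positive cells the PLIN2 share was 28.3 ± 1.45% with JQ1 and 31.1 ± 2.61% with DMSO. PLIN3 held most of the remainder, from 60.8 ± 4.23% in VHL-negative cells with DMSO to 71.3 ± 3.48% with JQ1. PLIN1, PLIN4 and PLIN5 together made up at most 1.39% in any library. The size of these shares depends on the merged exon lengths. PLIN1, the adipocyte coat protein, had at most 5 counts in any library, as did PLIN5, the perilipin of oxidative tissues.

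FITM2, a protein of the endoplasmic reticulum needed for droplets to bud, had 22.5, 19.1 and 20.4 CPM with JQ1, against 22.8, 21.1 and 19.8 CPM with DMSO, in VHL-negative cells. These overlapped, and the change was log2 -0.04 (95% interval -0.31 to 0.24, adjusted p = 0.849), a sign that turned with a filter of 1 CPM, with protein-coding genes only and without the second JQ1 or the first DMSO library of VHL-negative cells. In VHL-positive cells FITM2 had 22.9, 24.3 and 28.4 CPM with JQ1, against 19.2, 17.8 and 20.6 CPM with DMSO. All JQ1 libraries lay above all DMSO libraries, and FITM2 rose by 0.39 on the log2 scale (SE 0.129, adjusted p = 0.0308). This call was lost when any of 4 libraries was left out, the second or the third JQ1 library or the first or second DMSO library of VHL-positive cells (adjusted p from 0.0573 to 0.148). It was also lost with total counts as the scaling (adjusted p = 0.159), with no filter on low counts (0.156) and with the third JQ1 libraries of both lines removed (0.194).

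Of the lipases, PNPLA2 had 102, 134 and 118 CPM in VHL-negative cells with JQ1, against 50.2, 38.8 and 32.9 CPM with DMSO. In VHL-positive cells PNPLA2 had 120, 160 and 150 CPM with JQ1, against 50.3, 43.3 and 66.2 CPM with DMSO. In each line every JQ1 library exceeded every DMSO library. PNPLA2 rose 2.90-fold without VHL (log2 1.54, SE 0.187, adjusted p = 1.66e-05) and 2.68-fold in VHL-positive cells (log2 1.42, SE 0.186, adjusted p = 3.72e-05). Both effects differed by log2 0.11, with a 95% interval of -0.44 to 0.66 (adjusted p = 0.823), which does not exclude a larger rise in either line. An opposite-strand gene, AP006621.1, overlaps 10.4% of the exon length of PNPLA2.

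ABHD5, the activator of ATGL, did not follow the rise of PNPLA2. It had 41.2, 40.8 and 43.4 CPM with JQ1, against 35.2, 46.2 and 53.7 CPM with DMSO, in VHL-negative cells, and 33.9, 29.6 and 32.4 CPM with JQ1, against 38.9, 29.3 and 28.6 CPM with DMSO, in VHL-positive cells. The groups overlapped in both lines, with log2 changes of -0.11 (adjusted p = 0.629) and -0.014 (adjusted p = 0.958). The per-kb ratio of ABHD5 to PNPLA2 was accordingly 0.183 ± 0.0260 with JQ1, against 0.598 ± 0.237 with DMSO, in VHL-negative cells, and 0.116 ± 0.0254 with JQ1, against 0.320 ± 0.0894 with DMSO, in VHL-positive cells. In neither line did the JQ1 and DMSO ratios overlap, as was the case for PNPLA2, the divisor, by itself.

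LIPE, the diglyceride lipase, was low and had 3.96, 6.61 and 5.28 CPM with JQ1, against 3.20, 4.56 and 3.29 CPM with DMSO, in VHL-negative cells. The groups overlapped, and neither this change (log2 0.50, adjusted p = 0.0976) nor that in VHL-positive cells (log2 0.30, adjusted p = 0.369) passed. Without the first JQ1 library of VHL-negative cells the change of LIPE there was log2 0.67 and passed (adjusted p = 0.0278). MGLL, the last lipase of the stepwise route, had 174, 147 and 157 CPM with JQ1, against 372, 304 and 297 CPM with DMSO, in VHL-negative cells. The JQ1 libraries all lay below the DMSO libraries, and MGLL fell by 1.03 on the log2 scale (SE 0.148, adjusted p = 7.88e-05). In VHL-positive cells MGLL had 171, 184 and 170 CPM with JQ1, against 174, 252 and 199 CPM with DMSO, which overlapped (log2 -0.25, adjusted p = 0.208, and -0.36 with an adjusted p of 0.0401 when total counts were the scaling). The difference between both JQ1 effects on MGLL, log2 -0.78 (SE 0.208, adjusted p = 0.0732), did not pass.

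The first and last lipases of the route thus moved apart in VHL-negative cells. The per-kb ratio of MGLL to PNPLA2 there was 0.447 ± 0.101 with JQ1 and 2.63 ± 0.273 with DMSO. In VHL-positive cells it was 0.401 ± 0.0540 with JQ1 and 1.33 ± 0.491 with DMSO. No JQ1 library reached the ratio of any DMSO library in either line. PNPLA2, the divisor here and in the ABHD5 ratio, separated in this way by itself. The separation of these ratios is thus no further evidence on MGLL or ABHD5. Neither ratio was among the measures set out beforehand.

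LIPA, the lysosomal acid lipase, had 88.5, 45.8 and 64.5 CPM with JQ1, against 87.3, 80.9 and 85.8 CPM with DMSO, in VHL-negative cells. The first JQ1 library lay above all DMSO libraries and the other two lay below them, and the change of log2 -0.35 did not pass (adjusted p = 0.139). Without that first library the fall of LIPA was log2 -0.62 and passed (adjusted p = 0.00405). In VHL-positive cells LIPA had 151, 131 and 145 CPM with JQ1, against 97.9, 96.9 and 109 CPM with DMSO. These did not overlap, and LIPA rose by 0.49 on the log2 scale (SE 0.175, adjusted p = 0.042). That call was lost in 8 of 12 leave-one-out fits, among them every library of VHL-positive cells, the third JQ1 and the second DMSO library of VHL-negative cells (adjusted p from 0.0524 to 0.125). It was also lost with total counts as the scaling (0.0968) and with the third JQ1 libraries of both lines removed (0.135).

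HILPDA, the inhibitor of ATGL, had 114, 108 and 108 CPM in VHL-negative cells with JQ1, against 19.8, 25.9 and 19.0 CPM with DMSO. In VHL-positive cells HILPDA had 8.01, 8.18 and 7.58 CPM with JQ1, against 6.43, 6.45 and 5.96 CPM with DMSO. The JQ1 libraries lay above the DMSO libraries in both lines. The rise in VHL-negative cells passed (log2 2.35, SE 0.133, adjusted p = 1.23e-08), and the change in VHL-positive cells did not (log2 0.34, SE 0.140, adjusted p = 0.0779). The authors' deposited tables, made with DESeq2, gave log2 2.32 (adjusted p = 3.09e-62) in VHL-negative and log2 0.34 (adjusted p = 0.0937) in VHL-positive cells. In the authors' deposited tables the adjusted p was under 0.05 for the same 4 genes in VHL-negative and the same 3 in VHL-positive cells as in the edgeR fit. Same-strand genes, AC010655.2 and AC010655.4, overlap 13.2% of the exon length of HILPDA.

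Of the 10 genes, HILPDA alone passed the test of the difference between both JQ1 effects, against 1.21% of all genes, 0.497% with a positive and 0.71% with a negative difference (log2 2.01, SE 0.190, adjusted p = 6.6e-05). This difference ran from log2 1.91 to 2.17 over 12 leave-one-out fits and passed in each. The other genes' differences ranged from log2 -0.84 (LIPA, adjusted p = 0.0865) to 0.85 (PLIN4, adjusted p = 0.279). LIPA and MGLL passed it as well in DESeq2 (adjusted p = 0.032 and 0.0154) and with no filter on low counts (0.0121 and 0.0267), where PLIN2 also passed (0.0411). Without the first JQ1 library of VHL-negative cells, where 3510 genes in all passed instead of 250, 4 more of the 10 genes passed, namely LIPA, MGLL, PLIN2 and PLIN4 (adjusted p = 0.00467, 0.0162, 0.0125 and 0.0431). Without the second DMSO library of VHL-positive cells, MGLL passed beside HILPDA (adjusted p = 0.0262).

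**Figure D3:**
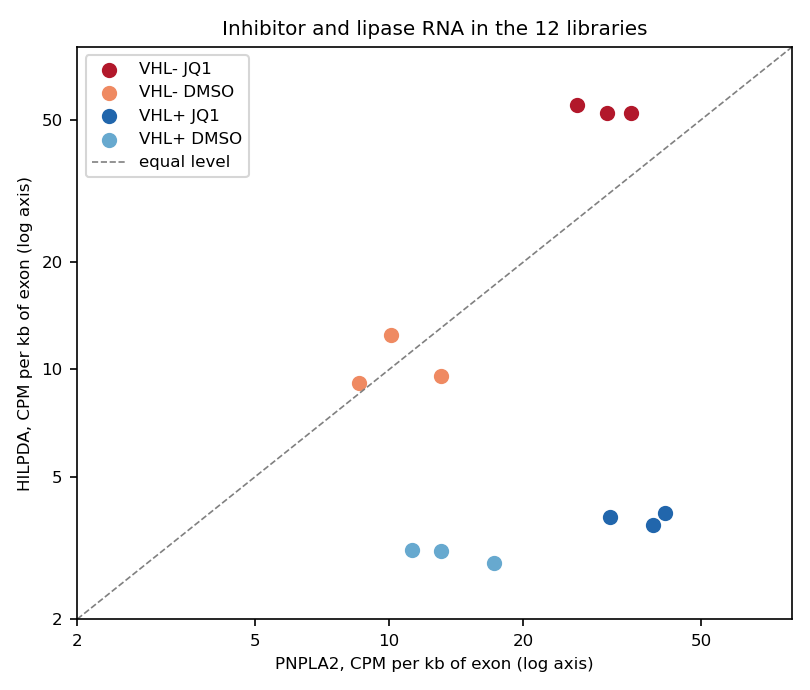
HILPDA against PNPLA2 RNA in the 12 libraries (both in CPM per kb of exon, log axes), with the dashed line at equal levels on that scale. The place of the line depends on the merged exon lengths. The JQ1-treated VHL-negative libraries lie above the line at ratios of 1.501 to 2.08, the DMSO-treated ones near it at 0.733 to 1.24, and all VHL-positive libraries below it at no more than 0.277.

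Inhibitor and lipase RNA can be set side by side as a per-kb ratio within each library, again a measure added after the data were seen. The ratio of HILPDA to PNPLA2 was 2.08, 1.501 and 1.70 in VHL-negative cells with JQ1, against 0.733, 1.24 and 1.07 with DMSO. In VHL-positive cells it was 0.124, 0.0952 and 0.0939 with JQ1, against 0.237, 0.277 and 0.167 with DMSO. JQ1-treated libraries thus had the higher ratio in VHL-negative cells and the lower ratio in VHL-positive cells, without overlap in either line. On the log2 scale the mean ratio differed by 0.82 between JQ1 and DMSO in VHL-negative cells (0.60 to 0.98 when 1 library was left out) and by -1.10 in VHL-positive cells (-1.31 to -0.94). The ratio of HILPDA to PLIN2 was 3.15 ± 0.835 with JQ1, against 0.318 ± 0.0776 with DMSO, in VHL-negative cells, and 0.217 ± 0.0116 with JQ1, against 0.150 ± 0.00698 with DMSO, in VHL-positive cells. These are RNA ratios and say nothing of the proteins' amounts. Their size, though not their fold change between groups, depends on the merged exon lengths.

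The next comparison set VHL-negative against VHL-positive cells under the same treatment. Under JQ1, HILPDA and LIPE were higher in VHL-negative cells and LIPA was lower, 3 of 10 genes against 40.9% of all genes (19.7% higher, 21.2% lower). Under DMSO, HILPDA, PLIN2, ABHD5, LIPE and MGLL were higher in VHL-negative cells and none was lower. These 5 of 10 stand against 30.7% of all genes in either direction, 14.8% higher and 15.9% lower. Of 13582 protein-coding genes fitted alone, a larger share passed, 6545 under JQ1 and 5506 under DMSO. The median log2 difference of the 10 genes was 0.0078 under JQ1 and 0.35 under DMSO, beside 0.03 and 0.0018 over all genes tested. The comparisons share their libraries with those of JQ1 and are not independent of them.

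**Figure D4:**
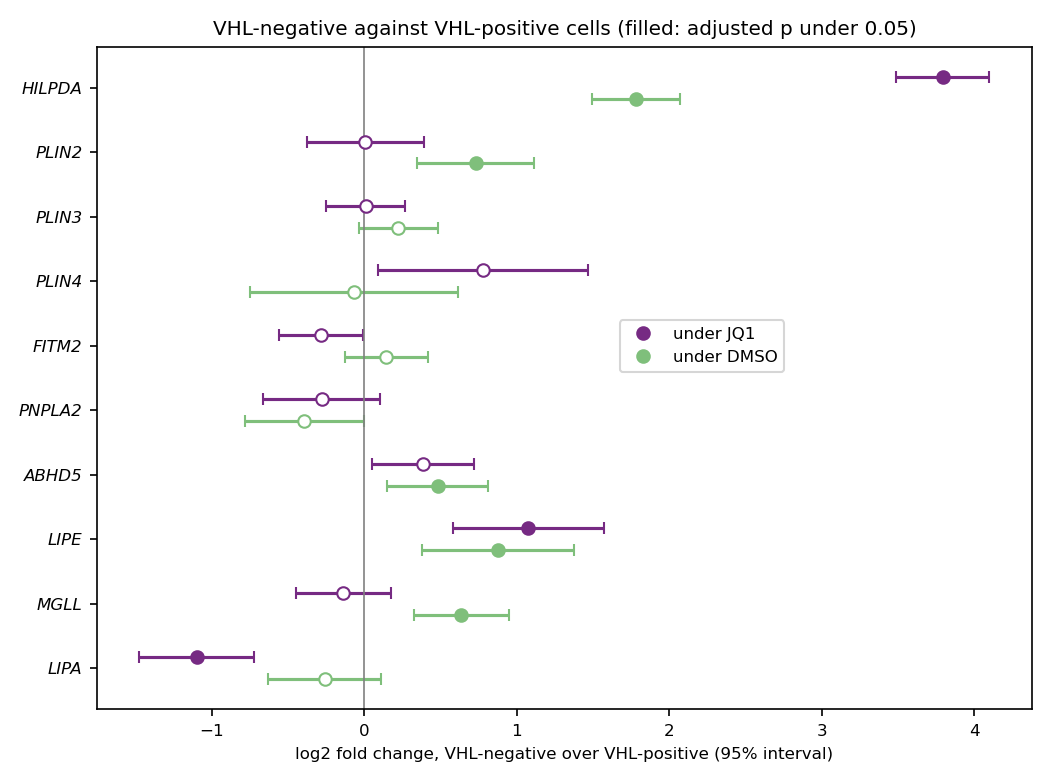
Log2 fold change of VHL-negative over VHL-positive cells for the 10 genes under JQ1 (purple) and DMSO (green), with 95% intervals from edgeR; filled points passed at an adjusted p under 0.05. HILPDA was higher in VHL-negative cells under both treatments (log2 3.79 and 1.78), while PLIN2 and MGLL were higher under DMSO (log2 0.73 and 0.64) and near 0 under JQ1 (0.0062 and -0.14).

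Under JQ1, HILPDA in VHL-negative cells was 13.9-fold higher (log2 3.79, SE 0.144, adjusted p = 1.41e-11), and under DMSO it was higher by 3.44-fold (log2 1.78, SE 0.137, adjusted p = 4.51e-08), with no overlap of libraries. PLIN2 was 1.66-fold higher in VHL-negative cells under DMSO (log2 0.73, SE 0.181, adjusted p = 0.00568), where its 141 to 208 CPM stood above the 100 to 108 CPM of VHL-positive cells. Under JQ1 its 65.9 to 117 CPM in VHL-negative cells surrounded the 86.1 to 98.0 CPM of VHL-positive cells (log2 0.0062, 95% interval -0.38 to 0.39, adjusted p = 0.983). MGLL took the same course, with log2 0.64 under DMSO (SE 0.147, adjusted p = 0.0035) and log2 -0.14 under JQ1 (95% interval -0.45 to 0.18, adjusted p = 0.478).

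LIPE was higher in VHL-negative cells under both treatments, by log2 1.08 under JQ1 (SE 0.234, adjusted p = 0.00179) and log2 0.88 under DMSO (SE 0.234, adjusted p = 0.00915). Its VHL-negative libraries held 3.96 to 6.61 CPM with JQ1 and 3.20 to 4.56 CPM with DMSO, all above the VHL-positive ones, which held 2.24 to 2.75 CPM with JQ1 and 1.73 to 2.37 CPM with DMSO. The LIPE call under DMSO was lost without the second DMSO library of VHL-negative cells (adjusted p = 0.0705), and LIPE-AS1 on the opposite strand overlaps 9.60% of its exon length. ABHD5 passed under DMSO (log2 0.48, SE 0.157, adjusted p = 0.0287) although its libraries overlapped. That call was lost without the second or the third DMSO library of either line (adjusted p from 0.0798 to 0.144), in a fit of only the groups compared (0.093) and with the third JQ1 libraries of both lines removed (0.0644). Under JQ1, ABHD5 differed by log2 0.39 and did not pass (adjusted p = 0.0613), although its libraries did not overlap. It passed there in 6 alternatives, among them total counts as the scaling (adjusted p = 0.036) and leaving out the first DMSO library of VHL-negative or of VHL-positive cells (0.0431 and 0.0484).

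LIPA was the 1 gene of the 10 that was lower in VHL-negative cells. Under JQ1 its VHL-negative libraries held 45.8 to 88.5 CPM, against 131 to 151 CPM in VHL-positive cells (log2 -1.10, SE 0.177, adjusted p = 0.000149). Under DMSO it held 80.9 to 87.3 CPM in VHL-negative cells, against 96.9 to 109 CPM in VHL-positive cells, without overlap, but the difference of log2 -0.26 did not pass (adjusted p = 0.291). PNPLA2 differed by log2 -0.28 under JQ1 (95% interval -0.67 to 0.11, adjusted p = 0.232) and log2 -0.39 under DMSO (-0.78 to -0.0026, adjusted p = 0.121). Without the first DMSO library of VHL-negative cells, PNPLA2 was lower in VHL-negative cells under DMSO (log2 -0.57, adjusted p = 0.0357). PLIN3 differed by log2 0.0095 under JQ1 and 0.22 under DMSO, FITM2 by -0.28 and 0.14, and PLIN4 by 0.78 and -0.07, and none of these passed. Without the first JQ1 library of VHL-negative cells, FITM2 under JQ1 passed at log2 -0.37 (adjusted p = 0.0409). PLIN4 passed under JQ1 without the first JQ1 library of VHL-negative cells (adjusted p = 0.00412), with total counts as the scaling (0.0397) and with protein-coding genes only (0.0461).

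**Figure D5:**
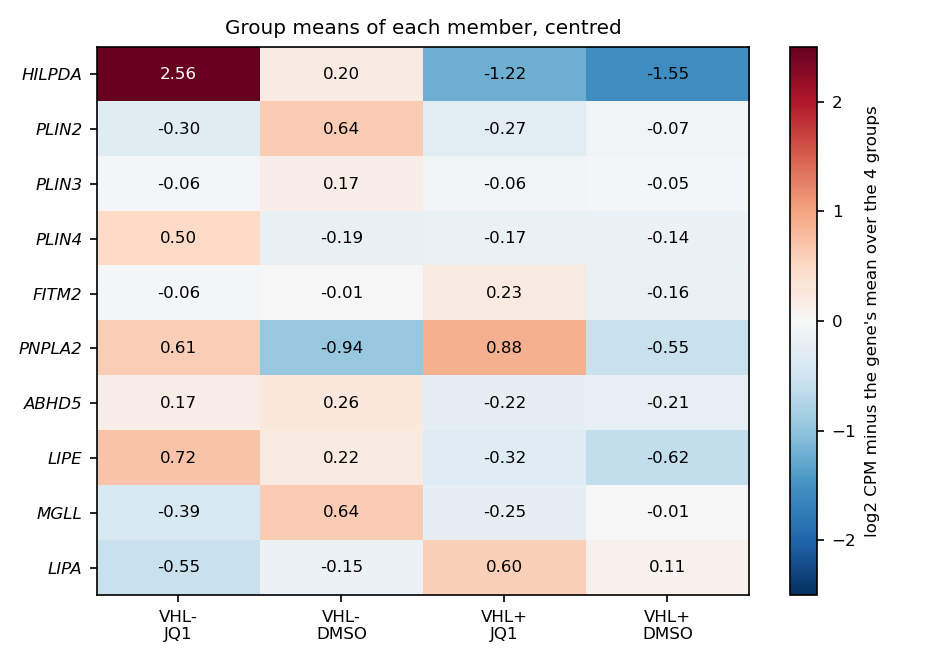
Group means of the 10 genes as log2 CPM minus each gene's own mean over the 4 groups (colour scale from -2.5 to 2.5). PLIN2 and MGLL share a profile that is highest in VHL-negative cells with DMSO, PNPLA2 is high in both JQ1 groups, and HILPDA is highest in VHL-negative cells with JQ1.

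The 10 genes did not share 1 profile over the 4 groups. Likeness was measured as the root mean square difference between the centred group means of log2 CPM, over 4 groups of 3 libraries, as a description. Of the 45 pairs of genes, PLIN2 and MGLL were the closest, 0.055 apart, followed by PLIN3 and ABHD5 at 0.17, and HILPDA and LIPA were the farthest, 1.99 apart. Over 9404 protein-coding genes whose log2 CPM averaged 3 or more, those most like PNPLA2 were HEXIM1 (0.073), ZCCHC24 (0.078) and HES6 (0.078). HEXIM1 encodes a protein that holds P-TEFb inactive, and its level is widely used as a readout of BET inhibitors. The most like PLIN2 were POLR1G (0.026), a subunit linked to RNA polymerase I, PLEKHF1 (0.044) and ZNF585B (0.049). The most like HILPDA were farther away, MT1X (0.31), a metallothionein, ANGPTL4 (0.48), a secreted inhibitor of lipoprotein lipase that is a known HIF and PPAR target, and SPAG4 (0.51). HIF targets did not all take this course, as CA9 fell with JQ1 in VHL-negative cells (log2 -1.57, edgeR adjusted p = 0.000269). MT1X stood at a log2 CPM of 6.72 in VHL-negative cells with JQ1 and 3.61 with DMSO, and at 2.26 and 1.86 in VHL-positive cells.

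A wider list of 34 genes of lipid droplets held 23 genes that could be tested. The other 11 had at most 10 counts in any library, among them DGAT2, G0S2, the other inhibitor of ATGL, with at most 1 count, and the droplet fusion genes CIDEA, CIDEB and CIDEC, with at most 1 count each. With JQ1, 4 of the 23 rose and 9 fell in VHL-negative cells, and 5 rose and 4 fell in VHL-positive cells, with medians of log2 -0.28 and 0.09. These are 56.5% and 39.1% of the 23, beside 32.1% and 31.8% of all genes. In VHL-negative against VHL-positive cells, 2 were higher and 13 lower under JQ1 (median log2 -0.55), and 4 were higher and 8 lower under DMSO (median log2 -0.20), which is 65.2% and 52.2% of the 23, beside 40.9% and 30.7% of all genes. Larger shares of the 13582 protein-coding genes fitted alone passed. These were 5640 and 5771 genes for JQ1 in VHL-negative and VHL-positive cells, and 6545 and 5506 between the lines under JQ1 and DMSO. The 39.1% for JQ1 in VHL-positive cells lay below the protein-coding share of that comparison, and the list's other shares lay above theirs. None passed the test of the difference between both JQ1 effects in edgeR, where 7 had an unadjusted p under 0.05, and DESeq2 called 3.

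DGAT1, which makes the triglyceride stored in droplets, rose with JQ1 in both lines. It averaged 69.5 ± 12.3 CPM with JQ1 and 23.8 ± 0.807 CPM with DMSO in VHL-negative cells (adjusted p = 2.03e-06, log2 1.55, SE 0.151), and 72.6 ± 4.68 CPM with JQ1 and 24.0 ± 4.10 CPM with DMSO in VHL-positive cells (adjusted p = 2.1e-06, log2 1.60, SE 0.151). PNPLA3, a droplet protein related to ATGL, fell with JQ1 in both lines (log2 -1.09 and -0.75, adjusted p = 9.5e-05 and 0.00387), and was higher in VHL-negative cells under JQ1 and DMSO (log2 1.35 and 1.69, adjusted p = 1.76e-05 and 6.89e-07). METTL7B, a droplet-associated methyltransferase, fell with JQ1 in both lines (log2 -3.37 and -2.66, adjusted p = 1.34e-05 and 8.23e-06), and its group means stayed at or below 4.74 CPM, with 2 to 5 counts per library in VHL-negative cells with JQ1. It was also lower in VHL-negative cells under JQ1 and DMSO (log2 -2.38 and -1.68, adjusted p = 0.000491 and 0.000147). METTL7A, its paralog, averaged 0.390 ± 0.0801 CPM in VHL-negative cells, against 8.72 ± 0.202 CPM in VHL-positive cells, under JQ1, and 0.683 ± 0.277 CPM, against 12.8 ± 5.95 CPM, under DMSO (log2 -4.43 and -4.24, adjusted p = 2.55e-07 and 1.13e-07), and had 5 to 13 counts per library in VHL-negative cells with JQ1.

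LDAF1, the partner of seipin at sites of droplet formation, was lower in VHL-negative cells under JQ1 (log2 -1.30, adjusted p = 1.44e-05) and rose with JQ1 in VHL-positive cells (log2 0.64, adjusted p = 0.00623). CES2, a carboxylesterase, was lower in VHL-negative than in VHL-positive cells under JQ1 and DMSO (log2 -1.004 and -0.66, adjusted p = 8.16e-06 and 0.000436). With JQ1, CES2 fell in VHL-negative cells (log2 -0.61, adjusted p = 0.00102). VPS13C, a lipid transfer protein, rose with JQ1 in VHL-positive cells (log2 0.73, adjusted p = 0.000914) and was lower in VHL-negative cells under JQ1 (log2 -0.65, adjusted p = 0.00151). For the difference between both JQ1 effects the smallest p-values of the list were those of LDAF1 (log2 -0.88, adjusted p = 0.0683), LDAH (-0.61, 0.0767), HSD17B11 (-0.71, 0.102) and PNPLA4 (-0.82, 0.128).

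All 13 genes of a list of transcription factors known to act on members could be tested. With JQ1, 3 rose and 3 fell in VHL-negative cells, and 5 rose and 3 fell in VHL-positive cells, which is 46.2% and 61.5% of the 13, beside 32.1% and 31.8% of all genes. In VHL-negative against VHL-positive cells, 3 were higher and 4 lower under JQ1, and 4 were higher and 3 lower under DMSO, which is 53.8% under each treatment, beside 40.9% and 30.7% of all genes. As given above, larger shares passed among protein-coding genes fitted alone. None passed the test of the difference in edgeR, where 3 had an unadjusted p under 0.05, and DESeq2 called 1.

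The RNA of HIF1A, an oxygen-regulated HIF subunit, rose with JQ1 by log2 0.81 in VHL-negative and 0.64 in VHL-positive cells (adjusted p = 0.000208 and 0.00139). It was lower in VHL-negative cells under JQ1 and DMSO (log2 -2.14 and -2.31, adjusted p = 3.71e-09 and 1.41e-09). EPAS1, which encodes HIF-2α, rose with JQ1 in VHL-negative and VHL-positive cells (log2 0.54 and 0.76, adjusted p = 0.00781 and 0.000701) and was lower in VHL-negative cells under JQ1 and DMSO (log2 -0.92 and -0.70, adjusted p = 9.42e-05 and 0.00116).

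TFEB, a factor of lysosome genes such as LIPA, fell with JQ1 by 1.27 on the log2 scale in VHL-negative and by 1.13 in VHL-positive cells (adjusted p = 0.000732 and 0.00202). TFE3, its relative, was higher in VHL-negative cells under JQ1 and DMSO (log2 1.00 and 1.23, adjusted p = 0.000316 and 5.24e-05). FOXO3, a factor that can raise PNPLA2, rose with JQ1 in VHL-negative and VHL-positive cells (log2 0.34 and 0.51, adjusted p = 0.0337 and 0.00313), and was higher in VHL-negative cells under DMSO (log2 0.38, adjusted p = 0.0193). PPARG, which drives PLIN2 and other droplet genes in adipocytes, fell with JQ1 in VHL-negative cells (log2 -0.68, adjusted p = 0.00191), and was lower in VHL-negative cells under JQ1 (log2 -0.51, adjusted p = 0.0103). PPARD was higher in VHL-negative cells under JQ1 and DMSO (log2 1.09 and 0.55, adjusted p = 0.000134 and 0.022) and fell with JQ1 in VHL-positive cells (log2 -0.70, adjusted p = 0.00572). MYC fell with JQ1 in VHL-negative cells (log2 -1.10, adjusted p = 0.000869), but its change in VHL-positive cells did not pass (log2 -0.08, adjusted p = 0.795). Under DMSO, MYC was higher in VHL-negative cells (log2 1.00, adjusted p = 0.00159). For the difference between both JQ1 effects the smallest p-values were those of MYC (log2 -1.01, adjusted p = 0.0852), PPARD (0.54, 0.199), PPARG (-0.45, 0.20) and MITF (0.43, 0.272).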

How the data were processed

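RNA of 12 RCC4 libraries was sequenced after DNase treatment and removal of ribosomal RNA, per the labels' protocols. The deposited table gives counts per Ensembl gene. Tools listed in the submitters' processing notes, with no role or order, were featureCounts, Subread 2.0.3, STAR 2.7.8 and DESeq2 1.30.1, and the build listed was GRCh38. The authors' deposited tables, 1 per line, give for JQ1 against DMSO a log2 fold change with its standard error, a statistic (a score), p-values and a mean of scaled counts, per the file headers.

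Counts were fitted in R 4.3.3 with edgeR 4.0.16 (TMM scaling, edgeR's filter on low counts, quasi-likelihood test, 1 mean per group over all 12 libraries), which left 20714 genes holding 99.87% of counts. Adjustment ran over all of them, with a threshold of 0.05. Alternatives were DESeq2 1.42.0, limma-voom (limma 3.58.1), total counts or median-of-ratios factors as the scaling, other filters, protein-coding genes only, the 2 compared groups only, a replicate block, a threshold of 0.01, and leaving out each library in turn or the third JQ1 libraries of both lines. Levels are TMM-scaled CPM, with a prior count of 2 on the log2 scale. Exon lengths, of all annotated exons of a gene merged, and overlaps came from GENCODE 29. The model was tested on simulated data.

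The 10 genes and both other lists were chosen with earlier results of these data known. All 10 are named in each comparison, with up to 4 genes of smallest p from each other list, the 3 genes most like HILPDA, PLIN2 and PNPLA2, and VHL and MYC as checks. Cells with a short hairpin against MYC, named in the protocol, were not analysed here.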

Additional observations from a re-analysis of the deposited data

Results flagged for a closer look

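The JQ1 effect on HILPDA differed between VHL-negative and VHL-positive cells by the test of the difference itself (log2 2.01, SE 0.190, adjusted p = 6.6e-05 in edgeR). HILPDA was higher with JQ1 in 3 of 3 VHL-negative libraries than in any DMSO library of that line, and likewise in 3 of 3 VHL-positive libraries. How often other genes separated in this way was not counted. The change in VHL-positive cells was small and did not pass (log2 0.34, adjusted p = 0.0779).

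The log2 ratio of HILPDA to PNPLA2 per kb moved in opposite directions. With JQ1 it was higher by 0.82 in VHL-negative cells and lower by 1.10 on the log2 scale in VHL-positive cells (-1.10), with no overlap of libraries in either line. The difference between the lines, 1.92, was not tested as such, and the ratio was added after the data were seen. It restates changes given above and is no second, independent result. With JQ1, HILPDA changed by log2 2.35 and PNPLA2 by 1.54 in VHL-negative cells, and by 0.34 and 1.42 in VHL-positive cells.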

How the results depend on the processing

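Over 1090 values of the 10 genes under alternatives, 992 kept their direction and their side of the threshold, 25 newly passed, 24 no longer passed and 49 changed sign, none of them for a value that passed. The number of the 10 genes that passed moved to 5 under JQ1 in VHL-negative against VHL-positive cells with total counts alone and with protein-coding genes only (ABHD5 and PLIN4 added). For the difference between both JQ1 effects it moved to 4 with no filter on low counts and 3 in DESeq2, and for JQ1 in VHL-positive cells to 1 at an adjusted p under 0.01 and 1 with the third JQ1 libraries of both lines removed. With 1 library left out it ran from 4 to 7 and from 1 to 3 for JQ1 in VHL-negative and VHL-positive cells, from 3 to 5 and from 3 to 6 for VHL-negative against VHL-positive cells under JQ1 and DMSO, and from 1 to 5 for the difference. For the difference, 1 other lipid droplet gene and 1 regulator passed with no filter, 3 and 1 in DESeq2, and 0 to 5 and 0 to 2 with 1 library left out. With the third JQ1 libraries of both lines removed, 7 other lipid droplet genes passed for JQ1 in VHL-negative cells, and 5 and 4 regulators for JQ1 in VHL-positive cells and for VHL-negative against VHL-positive cells under JQ1.

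Sign changes concerned results with a main log2 value from -0.14 (MGLL) to 0.11 (PNPLA2), though leaving out 1 library moved PLIN2 as far as -0.24. Under JQ1 in VHL-negative against VHL-positive cells, PLIN2 was -0.021 with no filter, -0.00023 in DESeq2, -0.030 in limma-voom, -0.017 with the replicate block, -0.011 without the third JQ1 libraries and -0.24 to 0.19 with 1 library left out. There PLIN3 was -0.023 with no filter and -0.085 to 0.077 with 1 library left out, and MGLL 0.018 with total counts. For JQ1 in VHL-negative cells, FITM2 was 0.047 with protein-coding genes only, 0.0065 with a filter of 1 CPM and -0.12 to 0.026 with 1 library left out, and ABHD5 -0.26 to 0.0048. For JQ1 in VHL-positive cells, PLIN3 was 0.018 without the third JQ1 libraries and -0.054 to 0.027 with 1 library left out, ABHD5 -0.086 to 0.14 and PLIN4 -0.22 to 0.13. Under DMSO, PLIN4 in VHL-negative against VHL-positive cells was -0.24 to 0.12. For the difference, ABHD5 was 0.041 with protein-coding genes only and -0.26 to 0.036 with 1 library left out, and PNPLA2 -0.088 to 0.27. The causes were not tested.

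Over all genes, calls for the difference numbered 250, against 1336 with no filter, 1188 in DESeq2, 47 at an adjusted p under 0.01, 25 without the third JQ1 libraries, 3510 without the first JQ1 library of VHL-negative cells and 43 without the third one. Calls for JQ1 in VHL-negative cells, in VHL-positive cells and for VHL-negative against VHL-positive cells under JQ1 numbered 6649, 6589 and 8479, against 3957, 4160 and 4814 without the third JQ1 libraries and 4039, 3989 and 5483 at 0.01, where those under DMSO numbered 4137 instead of 6357. With total counts alone, 34.1% instead of 48.1% of calls for JQ1 in VHL-positive cells were rises, as were 62.1% instead of 48.1% under JQ1 and 56.3% instead of 41.2% for the difference, and the median of all genes moved to log2 -0.14 for JQ1 in VHL-positive cells and 0.19 under JQ1. With no filter it was -0.16 for JQ1 in VHL-positive cells, -0.13 under DMSO and 0.33 for the difference. Same-numbered libraries correlated from -0.26 to 0.335, with 4 of 18 pairs over 0.1 and 12 of 36 best matches with their own number. No consistent pairing by number was seen. Deviations from means of 3 libraries cannot tell if same-numbered libraries were handled together. The replicate block left the numbers of the 10 genes at 4, 3, 3, 5 and 1. Levels of the 10 genes rest on 33 or more counts per library, fewest for PLIN4, but those of METTL7B on as few as 2, and 3 libraries per group limit the precision.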
